A study of Mus musculus with 2 samples.

Results

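Sox10, Erbb3, S100b, Tubb3, Stmn2, Elavl4 and Prph are 7 genes that are used to mark Schwann cell precursors and neurons, the cells of the nerves that reach the early ureter. They were followed in ureter explants treated with BIO, an inhibitor of the kinase GSK3 that is used to activate canonical WNT signaling. Every biological probe that carried 1 of these gene names on the array was taken, which gave 8 probes for 7 of the 29875 genes named on the array. Ureters of wildtype NMRI mouse embryos, of undetermined sex, had been isolated at E12.5 and kept for 18 h in serum-free medium, either with 10 µM BIO or with the solvent DMSO at 2 parts per 1000. Each RNA came from a pool of ureters, and each of the 2 arrays carried 1 BIO pool and 1 control pool in separate colors. On array 1 the BIO RNA was read in red and on array 2 in green. All further ratios are BIO against control within an array. Where signals are also set side by side across the 2 arrays, differences between arrays and dyes enter as well.

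Schwann cell precursors are neural crest-derived cells that travel along growing nerves. They depend on neuregulin, which axons present and which the ERBB2/ERBB3 receptor pair reads, and they can give rise to Schwann cells, melanocytes, parasympathetic neurons and chromaffin cells. The ureter receives sympathetic, parasympathetic and sensory fibers. BIO acts on the whole explant, so the treatment does not target a cell type. RNA of a whole explant was measured, in which fewer cells of a type and less RNA per cell cannot be told apart.

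In explants treated with BIO, transcripts of 4 of the 7 genes fell and of 0 rose. Stmn2 fell to 54.5% of the control, S100b to 59% and Elavl4 and Sox10 to 69.3% and 71.4%. Erbb3 and Prph were lower on both arrays and Tubb3 was higher on both, but these 3 did not pass the test. A gene was called when the adjusted p of limma, over all tested probes and 2 arrays, was below 0.05. By this rule 14.8% of all tested genes fell and 9.13% rose, against 4 and 0 of the 7 genes. The median log2 ratio of the 7 genes was -0.49, with -0.41 on array 1 and -0.54 on array 2, and that of all tested genes was -0.01. Of the 7 genes, 6 were below 0 on both arrays, as were 38.1% of all tested genes. The stricter rule that the study used for its other arrays, at least 2-fold on both arrays and an intensity of at least 100, has no test and was passed by 2.23% of all genes and by 0 of the 7.

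**Figure D1:**
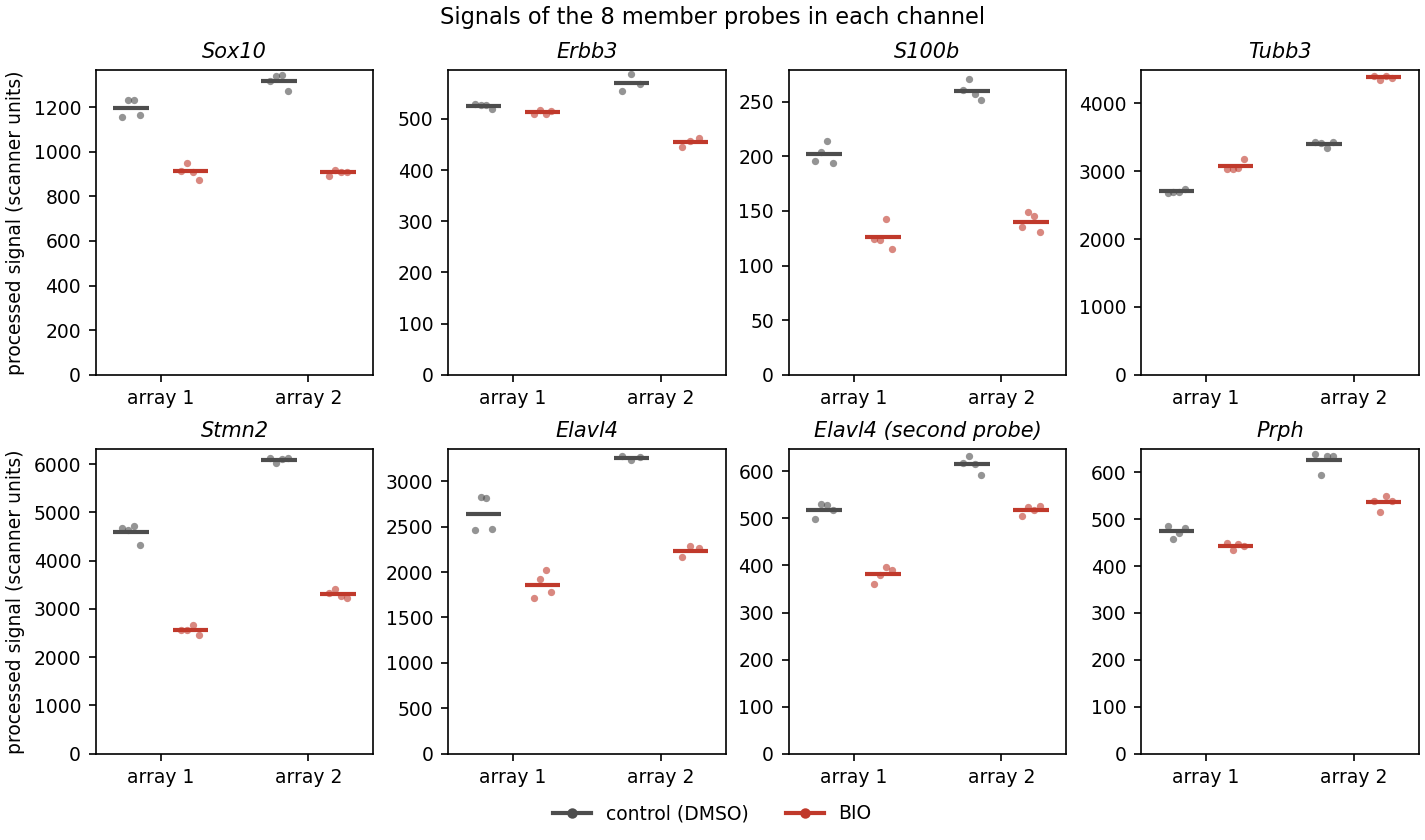
Processed signals of the 8 probes, in scanner units on linear axes that start at 0, for the control (grey) and BIO (red) channel of each array. Points are single spots and bars are their means. The BIO bar lies below the control bar of the same array for all probes but that of Tubb3, for which it lies above on both.

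Among the glial genes, Sox10 encodes the transcription factor that neural crest cells and all peripheral glia need. Its probe lies at chr15:78985518-78985577 (mm9, minus strand). Its processed signal, the background-subtracted and dye-normalized intensity of the scanner software, was 1196 in control and 912 in BIO on array 1. On array 2 it was 1319 in control and 908 in BIO. Both BIO signals were below both control signals. The log2 ratio of Sox10 was -0.41 and -0.56, with a mean of -0.49 ± 0.11 (SE, n = 2) and a limma adjusted p of 0.0158. Sox10 fell, but its adjusted p was above the threshold in 3 of 8 other treatments of the data that were tested, with values from 0.0518 under median centering to 0.19 for the deposited score table.

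Erbb3 encodes the neuregulin receptor of Schwann cell precursors, which some epithelia also make. Its probe lies at chr10:128006424-128006483 (mm9, minus strand) and is shown because its letters place it at the end of the coding sequence, with the stop codon in capitals after 19 open codons.
Erbb3 probe: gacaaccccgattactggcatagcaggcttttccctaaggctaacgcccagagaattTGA
The processed signal of Erbb3 was 526 in control and 513 in BIO on array 1. On the other array it was 570 in control and 455 in BIO. The arrays therefore differed in size for Erbb3, with nearly equal signals on array 1 and a clear gap on array 2. The log2 ratios were -0.13 and -0.37, a difference of 0.24, which was the widest among the 8 probes. The mean was -0.25 ± 0.12 (SE, n = 2) with a limma adjusted p of 0.163. The 95% interval of the ratio of BIO to control ran from 0.701 to 1.01.

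S100b encodes a calcium-binding protein of glial cells, and its probe lies at chr10:75723783-75723842 (mm9, plus strand). It gave 202 in control and 126 in BIO on array 1. On array 2 the values were 260 in control and 140 in BIO. The 2 BIO signals lay well below the 2 control signals. S100b fell by 0.76 ± 0.11 on the log2 scale (SE, n = 2; -0.68 on array 1 and -0.84 on array 2), with a limma adjusted p of 0.00212. For the deposited score table it was at -0.85 with an adjusted p of 0.102. Its ratio stood at percentile 4.81 of all tested genes, counted from the lowest.

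Among the neuronal genes, Tubb3 encodes the beta-tubulin of neurons. Its probe at chr8:125945850-125945909 (mm9, plus strand) gave 2702 in control and 3073 in BIO on array 1. On array 2 the signals were 3404 in control and 4382 in BIO. BIO was above control within each array, while the BIO signal of array 1 was below the control signal of array 2. The mean log2 ratio was 0.26 ± 0.11 (SE, n = 2) with a limma adjusted p of 0.134, and the 95% interval of the ratio ran from 1 to 1.43. Under median centering the log2 ratio of Tubb3 was 0.22 at an adjusted p of 0.683.

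Stmn2 encodes a stathmin that loosens microtubules in growing axons, and it gave the lowest ratio of the 7 genes. Its probe lies at chr3:8561545-8561604 (mm9, plus strand). The processed signal was 4590 in control and 2561 in BIO on array 1. On array 2 it was 6093 in control and 3310 in BIO. No BIO signal reached a control signal. Stmn2 fell by 0.88 ± 0.11 on the log2 scale (SE, n = 2), which is a 1.84-fold decrease, with a limma adjusted p of 0.000923. Its log2 ratios of -0.90 and -0.86 differed by 0.04, and Stmn2 was the gene that was called in all 8 other treatments of the data that were tested.

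Elavl4 encodes HuD, an RNA-binding protein of neurons, and is the member with more than 1 probe. The brighter probe, at chr4:109877455-109877514 (mm9, minus strand), gave 2644 in control and 1862 in BIO on array 1. On array 2 it gave 3259 in control and 2237 in BIO. Its log2 ratio was -0.53 ± 0.11 (SE, n = 2; limma adjusted p = 0.00975), from -0.52 and -0.54. The dimmer probe, at chr4:109878558-109878617, gave 519 and 382 on array 1 and 615 and 518 on array 2, for control and BIO in this order. Its log2 ratio was -0.41 ± 0.11 (SE, n = 2; limma adjusted p = 0.0354). Both probes of Elavl4 thus fell, and at each of them both BIO signals were below both control signals. With the processed signals in place of normexp and loess, Elavl4 kept a log2 ratio of -0.52 but had an adjusted p of 0.0595, and it also missed the threshold under median centering (0.0538) and for the score table (0.101).

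Prph encodes peripherin, an intermediate filament of neurons with axons outside the brain and spinal cord. Its probe, at chr15:98889042-98889101 (mm9, plus strand), also ends with the coding sequence, and its stop codon is in capitals.
Prph probe: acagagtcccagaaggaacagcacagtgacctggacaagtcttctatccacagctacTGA
Prph gave 474 in control and 443 in BIO on array 1. On array 2 the values were 626 in control and 536 in BIO. BIO was the lower channel on both arrays, although the BIO signal of array 2 was above the control signal of array 1. The mean log2 ratio of Prph was -0.22 ± 0.11 (SE, n = 2; limma adjusted p = 0.19), with -0.16 on array 1 and -0.29 on array 2. The 95% interval of its ratio ran from 0.72 to 1.02.

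**Figure D2:**
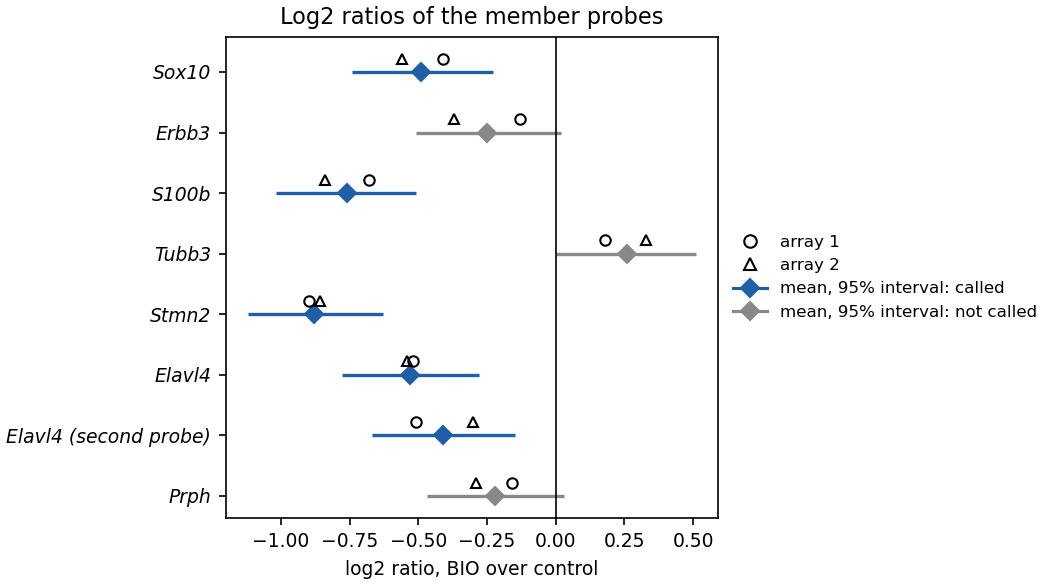
Log2 ratio of BIO over control for the 8 probes, with array 1 as open circles, array 2 as open triangles and the mean with its 95% interval as diamonds, blue where called and grey where not. Stmn2 and S100b lie farthest below 0, at -0.88 and -0.76, and Tubb3 is the probe above 0, at 0.26.

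The 7 genes did not shift by the same amount, with mean log2 ratios from -0.88 for Stmn2 to 0.26 for Tubb3, both of them genes of the neuronal microtubule system. Differences between the members were not tested. Of the 3 glial genes 2 fell, and of the 4 neuronal genes 2 fell. The 4 spots of a probe on an array were close to each other, with SDs of the log2 ratio from 0.0408 to 0.116. All 8 probes were well above background in all 4 channels, and 2 of their 64 spots, 1 of Erbb3 and 1 of the brighter Elavl4 probe on array 2, were outliers and left out. In the distribution of all tested genes, Stmn2 stood at percentile 3.6 and Elavl4 at 9.05, followed by Sox10 at 10.3. Erbb3 stood at 23.2, Prph at 25.3 and Tubb3 at 84.5.

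**Figure D3:**
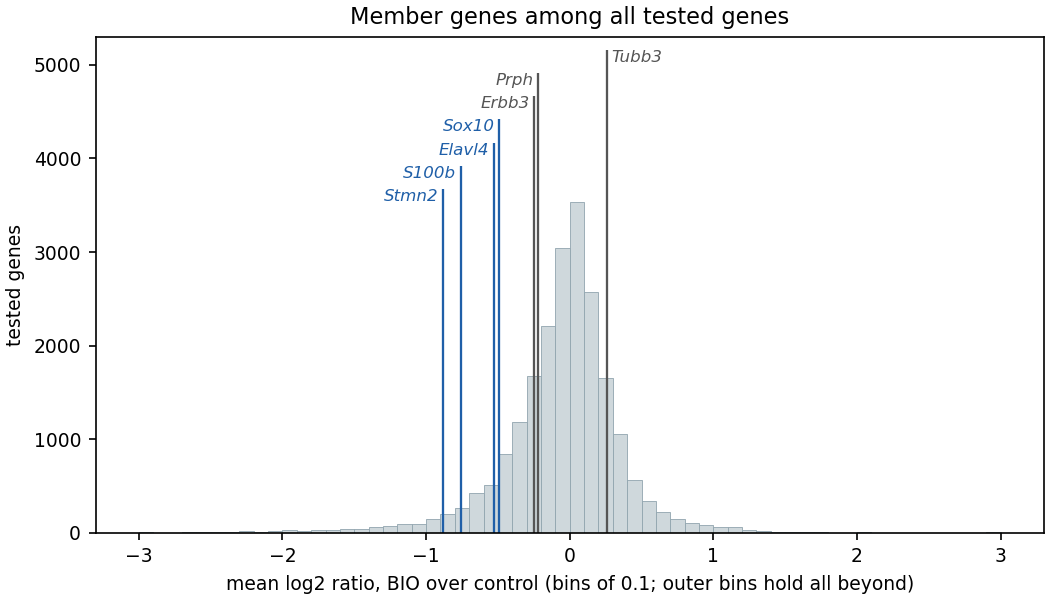
Number of tested genes (y axis) by mean log2 ratio of BIO over control (x axis, bins of 0.1), with the 7 genes as lines, blue where called and grey where not. The 4 called genes lie between -0.88 and -0.49, in the lower tail, and the other 3 lie within the bulk of the distribution.

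Promoter sequences were looked at because WNT signaling acts through TCF/LEF factors and glial genes through SOX factors. RefSeq windows of 250 bases before the start (GRCm38.p6) were at hand for 4 of the 7 genes, S100b, Tubb3, Prph and Elavl4, the last with 4 starts. The 3 genes with a single start are printed, 5′ to 3′ on the gene's strand, to set S100b, which fell, beside Prph and Tubb3, which were not called. Capitals mark a TATAAA in the sense direction.
S100b, chr10:76253586-76253835 (plus strand): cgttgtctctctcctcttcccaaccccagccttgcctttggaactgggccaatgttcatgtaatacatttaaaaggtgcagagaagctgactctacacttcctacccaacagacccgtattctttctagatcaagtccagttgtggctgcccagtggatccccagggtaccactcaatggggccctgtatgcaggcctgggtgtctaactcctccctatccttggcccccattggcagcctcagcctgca
Prph, chr15:99054924-99055173 (plus strand): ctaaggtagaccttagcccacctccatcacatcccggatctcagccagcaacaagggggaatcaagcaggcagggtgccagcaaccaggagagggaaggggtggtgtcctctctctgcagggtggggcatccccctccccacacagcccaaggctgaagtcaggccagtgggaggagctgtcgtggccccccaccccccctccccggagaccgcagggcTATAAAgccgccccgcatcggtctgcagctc
Tubb3, chr8:123411303-123411552 (plus strand): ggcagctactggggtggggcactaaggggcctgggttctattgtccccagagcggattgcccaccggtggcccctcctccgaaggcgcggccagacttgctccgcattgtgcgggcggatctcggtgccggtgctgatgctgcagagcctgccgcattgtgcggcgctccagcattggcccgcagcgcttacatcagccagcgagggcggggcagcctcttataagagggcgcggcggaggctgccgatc
Prph holds a TATAAA that begins 31 bases before its start, as 7.59% of all promoter windows hold one somewhere. The letters CTTTGA, the core that TCF/LEF factors read, and CTTTGT, a core of SOX factors, were searched on both strands. Neither was in any of the 7 windows of the 4 genes, where 13.8% and 16.5% of all windows hold them. The E-box CAGCTG, which reads the same on both strands, was in 2 overlapping windows of Elavl4 and is held by 13% of all windows.

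Further glial genes outside the 7 were read from a list of 14, of which 13 were tested. Of these 8 fell and 0 rose, with a median log2 ratio of -0.57. Over all tested genes 14.8% fell and 9.13% rose, and the counts of this and the later lists stand beside these shares. Gfra3, a receptor for artemin, had a log2 ratio of -1.10 ± 0.13 (SE, n = 2; adjusted p = 0.000682), and the neurotrophin receptor gene Ngfr fell by 0.87 ± 0.11 (SE, n = 2; adjusted p = 0.00106). Ednrb, the endothelin receptor gene of migrating crest cells, fell by 0.81 ± 0.11 (SE, n = 2; adjusted p = 0.0018) and had a second probe at -0.90. Fabp7, a lipid-binding protein of immature glia, fell by 0.73 ± 0.13 (SE, n = 2; adjusted p = 0.00464). Cdh19, Dhh, Mbp and Egr2 made up the rest of the 8 and ranged from -0.71 to -0.47. Which cells of the explant made the transcripts of this list, such as those of Ednrb and Dhh, was not tested. With the processed signals, 5 of the 13 were called in place of 8.

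A list of 8 genes held the neuregulins, the ERBB receptors other than ERBB3 and the receptor inhibitor gene Errfi1, and 3 of them fell and 1 rose. Egfr fell by 1.79 ± 0.15 on the log2 scale (SE, n = 2; adjusted p = 0.000154), with signals of 2658 and 2995 in control against 637 and 1057 in BIO. The ligand gene Nrg1 fell by 1.32 ± 0.13 (SE, n = 2; adjusted p = 0.000332), and the feedback inhibitor gene Errfi1 fell by 0.50 ± 0.11 (SE, n = 2; adjusted p = 0.0158). Egfr, Nrg1 and Errfi1 are also made by cells other than nerve cells. Erbb4 rose by 0.64 ± 0.12 (SE, n = 2; adjusted p = 0.00635) at dim signals of 12.2 and 18.1 in control and 40.2 and 36.6 in BIO. Erbb2, the partner of ERBB3, was at -0.30 ± 0.12 (SE, n = 2; adjusted p = 0.108), beside the -0.25 of Erbb3.

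Of 18 further pan-neuronal genes, 10 fell and 0 rose, and their median log2 ratio was -0.40. The synaptic vesicle gene Syt1 fell by 1.55 ± 0.12 on the log2 scale (SE, n = 2; adjusted p = 0.000141) and Dcx, a microtubule gene of young neurons, fell by 1.16 ± 0.11 (SE, n = 2; adjusted p = 0.000266). The gene of the microtubule-binding protein tau, Mapt, fell by 0.71 ± 0.12 (SE, n = 2; adjusted p = 0.00506) and Elavl2, a relative of Elavl4, fell by 0.70 ± 0.11 (SE, n = 2; adjusted p = 0.00284). Gap43, Map2, Nefl, Nefm, Uchl1 and Rtn1 were the other 6 that fell, with log2 ratios from -0.61 to -0.38. The remaining 8, which included Elavl3, Stmn3, Stmn4, Snap25 and Tubb2b, had log2 ratios from -0.14 to 0.27 and were not called. The count of 10 depended on the normalization, with 6 under median centering and 3 with the processed signals.

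Of 12 genes of autonomic neurons and chromaffin cells, 8 fell and 0 rose, with a median log2 ratio of -0.70. Ret, the GDNF receptor gene, fell by 1.46 ± 0.16 on the log2 scale (SE, n = 2; adjusted p = 0.000579), and it is also a gene of the ureteric epithelium. Ddc, which makes dopamine, fell by 1.41 ± 0.12 (SE, n = 2; adjusted p = 0.000192), and Slc18a2, the vesicular monoamine transporter gene, fell by 1.24 ± 0.13 (SE, n = 2; adjusted p = 0.000402). Chgb, a secretory granule gene, fell by 1.13 ± 0.13 (SE, n = 2; adjusted p = 0.000601), from signals of 15168 and 19935 in control to 6092 and 10776 in BIO. Dbh, which makes noradrenaline, and the nicotinic receptor gene Chrna3 also fell, by log2 ratios of -0.84 and -0.87. Phox2a, Hand2, Th and Chga, which include transcription factor genes of autonomic neurons and the gene of the rate-limiting enzyme of catecholamine synthesis, lay between -0.33 and 0.00 and were not called. With the processed signals 4 of the 12 were called.

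**Figure D4:**
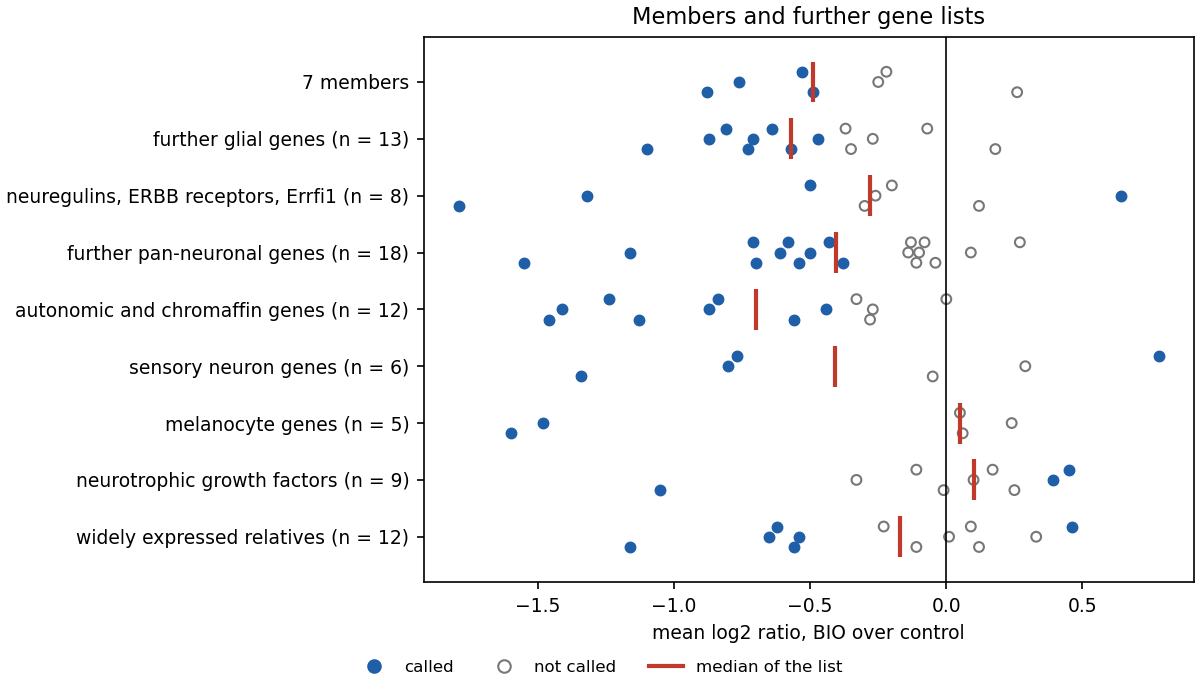
Mean log2 ratio of BIO over control for the 7 genes and for the tested genes of 8 further lists, filled where called and open where not, with the median of each list as a red line. The medians of the glial, pan-neuronal and autonomic lists lie at -0.57, -0.40 and -0.70, and those of the melanocyte and growth factor lists at 0.05 and 0.10. Those of the sensory, neuregulin and widely expressed lists lie at -0.41, -0.28 and -0.17. The melanocyte median is the value of Tyr, a dim gene.

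Among the genes of sensory neurons 6 of 10 were tested, and 3 fell and 1 rose, with a median of -0.41. The neurotrophin-3 receptor gene Ntrk3 fell by 1.34 ± 0.12 on the log2 scale (SE, n = 2; adjusted p = 0.000205). Calca, which encodes the neuropeptide CGRP, fell by 0.77 ± 0.11 (SE, n = 2; adjusted p = 0.00203), while a dimmer second probe of Calca was at 0.23 with an adjusted p of 0.168. Tac1, the substance P gene, is the 1 counted as risen, with signals of 8.93 and 12.1 in control and 42 and 33.2 in BIO. It entered the test only through BIO, where it is high, since its control was not well above background on array 2, so its call is not read as support. Neurog1, Neurog2, Neurod1 and Scn9a were not well above background in both arrays of either condition and were not tested. The melanocyte list had 2 genes that fell and 0 that rose among 5 tested, namely Mitf at -1.60 ± 0.12 and Kit at -1.48 ± 0.11 (SE, n = 2; adjusted p = 0.000132 and 0.000105). Neither is made by melanocytes alone, and the pigment enzyme genes Dct and Tyrp1 were not well above background. The other tested genes, Tyr, Pmel and Mlana, were not called and were dim, with control signals of 23.3, 55 and 19.7 on array 1. The list median of 0.05 is the value of Tyr.

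Of 9 growth factor genes for peripheral neurons and glia, 2 rose and 1 fell, where 9.13% of all tested genes rose and 14.8% fell. Artn, which encodes artemin, the ligand of the GFRA3 receptor, fell by 1.05 ± 0.13 on the log2 scale (SE, n = 2; adjusted p = 0.000853). Lif is counted as risen at signals of 6.35 and 5.18 in control and 18.5 and 17.6 in BIO. It entered the test only through BIO, since its control was not well above background on array 2, so its call is not read as support. Under median centering and with the processed signals, 0 of the 2 risen genes were called.

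Relatives of the 7 genes were read to see whether the gene families moved as a whole. Their list is named for wide expression, although it also holds the muscle gene Des. Of its 12 genes 5 fell and 1 rose, with a median log2 ratio of -0.17. Des, a relative of Prph found in muscle, fell by 1.16 ± 0.11 on the log2 scale (SE, n = 2; adjusted p = 0.000279), and Tubb2a fell by 0.65 ± 0.11 (SE, n = 2; adjusted p = 0.00378). S100a11 fell by 0.62 ± 0.11 (SE, n = 2; adjusted p = 0.00554) and Vim fell by 0.56 ± 0.13 (SE, n = 2; adjusted p = 0.0181). Tubb5, the common beta-tubulin gene of dividing cells, rose by 0.46 ± 0.12 (SE, n = 2; adjusted p = 0.0268). Stmn1 and Elavl1, the widely expressed relatives of Stmn2 and Elavl4, were at 0.09 and -0.11 and were not called. Array 2 alone gave a median of 0.07 for this list, so its direction rested on array 1.

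Markers of the other cell types were read beside these genes. The explants held the marker transcripts of ureteric epithelium and mesenchyme well above background, with Krt18 at 28778 and Col3a1 at 70916 in control on array 1. All 6 endothelial markers fell, with a median of -2.10 and Kdr at -2.63, and their summed signal went from 24549 to 3779 on array 1 and from 29424 to 7713 on array 2. Of the 8 epithelial markers 5 fell (median -0.90) and of the 8 mesenchymal markers 4 fell (median -0.38). The summed signal of the epithelial markers went from 85574 and 86434 in control to 49834 and 59439 in BIO, and that of the mesenchymal markers from 200615 and 215582 to 122962 and 142634. These sums weigh the brightest genes most, such as Krt8 and Krt18 or Col1a1 and Col3a1. The epithelial genes Epcam, Cldn7 and Gata3 were not called, at log2 ratios of 0.02, -0.06 and -0.10. The mesenchymal genes Tbx18, Tcf21, Foxf1 and Tbx2 were not called either, at -0.22, -0.32, -0.16 and 0.01. Among 6 macrophage markers 3 fell, with summed signals of 5370 and 6019 in control and 3975 and 5675 in BIO. All 6 proliferation markers rose, with a median of 1.03 and summed signals of 40926 and 45890 in control and 73369 and 84172 in BIO. The 6 kidney progenitor markers, with 1 risen and 1 fallen, summed to 21566 and 21874 in control and 20923 and 20245 in BIO. The part of these other cell types in the values of the 7 genes was not tested.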

How the data were processed

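Total RNA of pooled ureter explants had been amplified, labeled with AlexaFluor555 (green) or AlexaFluor647 (red) and hybridized to 2-color Agilent arrays, with the dyes exchanged on the second array. The authors read spot intensity and local background intensity with Agilent Feature Extraction 10.7.3.1, per the file headers, and the deposited scanner tables also hold its processed intensity, which is background-subtracted and dye-normalized. The authors also deposited a table with 1 score per probe and array, which follows a signed fold of BIO over control. Its making is not given in the sources used here. Its scale and direction were found by setting it against the scanner values, its centering is unknown, and its median was 1 on both arrays. The scores of the 8 probes carry 1 decimal, and 19.9% of tested probes have the same score on both arrays. How this coarse scale bears on the adjusted p of the score table was not tested.

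Mean intensities were corrected by normexp (offset 50) and normalized by loess in limma 3.58.1 (R 4.3.3), with weight 0 for control and outlier spots. Control spots and outliers were left out, spots of a probe were averaged, and the ratio of the swapped array was turned. Of 39429 probes, the 28824 that were well above background in both arrays of BIO or of control entered a two-sided test of the mean log2 ratio against 0 (lmFit, eBayes), adjusted by Benjamini-Hochberg, with a threshold of 0.05. The prior had 7.14 degrees of freedom. A gene was represented by its brightest probe, which gave 21574 tested genes of 29875. Precision is limited by having 2 arrays, and the median SE of a log2 ratio was 0.111. The script was tested on simulated data. On the array as a whole, 70.1% to 80.9% of the spots of a channel were well above background, 0 were saturated, and Pearson's r between the arrays was 0.801 across the ratios of tested probes, which are not independent replicates. The arrays share 1 slide and 1 scan, so slide and scan do not differ between them. Array, pair of pools and dye orientation change together and cannot be told apart.

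Probe names were updated through RefSeq (GRCm38.p6), which matched 28328 probes by accession, 3400 by symbol and 243 by synonym, and 7458 kept the file's name. Probe positions are those in the files (mm9). The members and gene lists were chosen with earlier results of these data known, so the lists are described by counts and medians alone. All members were named, and from each list the called genes with the largest change, at most 4, or the brightest where under 2 were called. Some genes that the lists and their counts include are not reported here by name. Further genes that fell or did not pass were named for completeness after their values were seen. The alternatives were processed signals, median centering, an offset of 16, no filter or a stricter filter on dim probes, the mean over probes, adjustment over 1 probe per gene, the score table, and each array alone.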

Additional observations from a re-analysis of the deposited data

How the results depend on the processing

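No paired analysis was possible because none is left to add, since the tested ratio within an array already pairs a BIO pool with a control pool. Of 56 alternative tests of the 7 ratios, 49 stayed on their side of the threshold and 7 lost the call. None of these or of the 14 values with an array left out, which have no test, changed direction. With the processed signals Sox10 was at -0.46 (limma adjusted p = 0.0769) and Elavl4 at -0.52 (0.0595), with median centering they were at -0.59 (0.0518) and -0.58 (0.0538), and with the deposited score table at -0.48 (0.19) and -0.54 (0.101). S100b was at -0.85 (0.102) with the score table. The number of fallen members went from 4 to 2, 2 and 1 under these 3 settings, and the cause was not tested. The share of all tested genes called under these settings was not taken. Counts of members or list genes under them therefore have no background to be read against. Erbb3, Tubb3 and Prph were called in none of them. Median centering and the processed signals moved the median of all tested genes by -0.03 and 0.04. With 1 array left out, the ratio was the other array's own value, from -0.56 to -0.41 for Sox10, -0.37 to -0.13 for Erbb3, -0.84 to -0.68 for S100b, 0.18 to 0.33 for Tubb3, -0.90 to -0.86 for Stmn2, -0.54 to -0.52 for Elavl4 and -0.29 to -0.16 for Prph. With a minimum of 1.5-fold, S100b and Stmn2 passed the rule without a test, 2 in place of 0.

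Among the list medians 3 changed sign. The sensory list went from -0.41 to 0.01 without the filter on dim probes, which adds genes not well above background, and to -0.77 with the stricter filter that asks for all 4 channels. Without replicate 1 the melanocyte list went from 0.05 to -0.02 and the widely expressed relatives from -0.17 to 0.07, and without replicate 2 these were at 0.04 and -0.27. Counts over the lists under median centering and processed signals were added after seeing the data, of which 9 moved by more than 1.5-fold and 23 did not. Those for the widely expressed relatives went from 5 fallen genes to 2 in both. Dim signals limit the ratios of Erbb4, Tac1, Lif, Tyr, Pmel and Mlana, which the offset of 50 pulls toward 0.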
